A study of Homo sapiens with 6 samples.

Results

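The genes described here are 46 genes of the NRF2 pathway, covering NRF2 control, glutathione, thioredoxin, NADPH supply, iron storage and detoxification, out of 60671 genes in the deposited expression table. They were chosen by name. The table carried the name of 43 of them, and GPX1, GPX3 and SRXN1, whose rows carried no name, were found by their Ensembl identifier. Expression was measured by RNA-Seq in U87 cells, an established human glioblastoma line, in 6 libraries. The rutaecarpine group (n = 3) received 100 μM rutaecarpine, written rutaecarpin in the labels, for 48 h in serum-free medium, and the control group (n = 3) received the solvent for the same time. Both groups contained 0.1% DMSO, and no untreated cells were analysed here. Neither the labels nor the file say whether replicates came from separate cultures, so p values measure the spread between these libraries, which may be technical.

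NRF2, encoded by NFE2L2, is a transcription factor that KEAP1 normally marks for degradation. When oxidants or electrophiles modify KEAP1, NRF2 accumulates, pairs with a small MAF protein and binds antioxidant response elements (AREs) near genes that make glutathione, reduce thioredoxin, supply NADPH, store iron and clear reactive compounds. BACH1 represses many of the same genes. This control acts largely on the NRF2 protein, which RNA-Seq does not measure.

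The promoter sequences that carry the ARE core are shown first, because the core is the letter pattern by which this pathway is usually recognised. RefSeq promoter windows on GRCh38.p14, from 250 bases before to 50 after a gene start, were found for 36 of the 46 genes. The core TGACNNNGC was searched on both strands. It was present for 10 of these 36 genes (27.8%) and for 16.1% of all 27305 genes with such windows. Counted by window, it was in 20.4% of the 54 windows of these genes and in 13.3% of all 35116 windows. Besides those printed, PGD, EPHX1, GSTO1, GSTP1 and ME1 carried it. NFE2L2, GCLC, PRDX4 and OSGIN1 had windows without a match, and no match was found for MAFG. A gene without a match may have had no window, or a core outside its window. MAFF, a small MAF partner of NRF2, carried it 122 bases before a RefSeq start, in chr22:38201862-38201890, plus strand. This stretch lies inside the gene, which begins at 38200767 in the annotation used for gene positions below. MGST1, a membrane glutathione transferase, carried it 31 bases into a RefSeq transcript, in chr12:16347135-16347163, plus strand. GCLM, the modifier subunit of the glutathione-making ligase, carried it 34 bases before a RefSeq start, in chr1:93909446-93909474, minus strand. In the annotation of gene positions GCLM begins at 93909456, within this stretch. TXNRD1, thioredoxin reductase, carried it 99 bases before 1 start, in chr12:104215670-104215698, and 102 bases before another, in chr12:104286920-104286948, both plus strand. The second of these lies inside the gene, which runs from 104215779 to 104350305 in the annotation of gene positions. KEAP1 itself carried it 31 bases before a RefSeq start, in chr19:10502784-10502812, minus strand. That stretch also lies inside its gene, which runs from 10486120 to 10503741 in the same annotation of gene positions. TXNRD1 and KEAP1 each held 1 more match, not printed. Each sequence is written along its gene and capitals mark the core on either strand. GCLM, TXNRD1 and KEAP1, which did not pass the test, are shown after their values were seen.
MAFF: cttccaggggGCGGGGTCAtacgggggcg
MGST1: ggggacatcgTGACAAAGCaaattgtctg
GCLM: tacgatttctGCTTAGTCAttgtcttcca
TXNRD1 first window: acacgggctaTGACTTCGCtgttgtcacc
TXNRD1 second window: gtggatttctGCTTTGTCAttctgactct
KEAP1: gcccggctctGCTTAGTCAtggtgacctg

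The DRE core GCGTG, the short pattern bound by the aryl hydrocarbon receptor (AhR), which the study examined as a target of rutaecarpine, was also searched on both strands. The study searched longer patterns that hold this core, over a longer stretch before the coding sequence, so its counts do not compare with these. The core GCGTG was present for 24 of the 36 genes (66.7%) and for 40.6% of all genes with windows. Counted by window, it was in 57.4% of the 54 windows of these genes and in 36.5% of all 35116 windows. For both cores, all genes with windows include genes that did not pass the expression filter used below. The shares among expressed genes alone were not computed. The called genes with the core were NFE2L2, MAFF, GCLC and OSGIN1, called higher, and PRDX4, called lower. Most genes with it were not called. These were KEAP1, BACH1, AKR1B1, BLVRB, EPHX1, FTL, GCLM, GPX1, GPX4, PGD, PRDX2, PRDX5, SOD2, SRXN1, TXN, TXNRD1 and UGDH. ME1 and GSTM3, which also had it, were not tested. A match of letters is a description of the sequence and was not compared with binding.

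In the rutaecarpine group, transcripts of NRF2 and of its partners MAFF and MAFG were up-regulated, as were GCLC, MGST1 and OSGIN1. The peroxiredoxin PRDX4, the efflux pump ABCC3 and the aldo-keto reductases AKR1B10 and AKR1C3 were down-regulated. The values are TPM, in which reads are divided by transcript length and each library is brought to the same total, so levels are relative within a library, and a change in the share of cells that express a gene cannot be told apart from a change per cell. A gene was called when limma on log2(TPM + 1), with Benjamini-Hochberg adjustment over 14377 genes, gave an adjusted p of at most 0.05. Of the 46 genes, 44 were expressed at 1 TPM or more in 3 or more libraries and were tested. ME1 and GSTM3 did not, with at most 0.06 and 0.79 TPM in any library. Of the 44 genes, 6 (13.6%) were called higher, where 4.6% of all tested genes were, and 4 (9.09%) were called lower, where 4.68% of all tested genes were. In either direction, 9.29% of all tested genes were called. The median log2 fold change was -0.0031 over the 44 genes and 0.08 over all tested genes, and 22 of the 44 were above 0. The libraries of the groups did not overlap for 12 genes in the higher direction (27.3%, against 19.3% of all tested genes) and for 7 in the lower direction (15.9%, against 14.0%). An exact permutation test of 1 gene in 3 against 3 libraries cannot give a p below 0.1, and limma reaches smaller values by borrowing the spread of other genes.

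**Figure D1:**
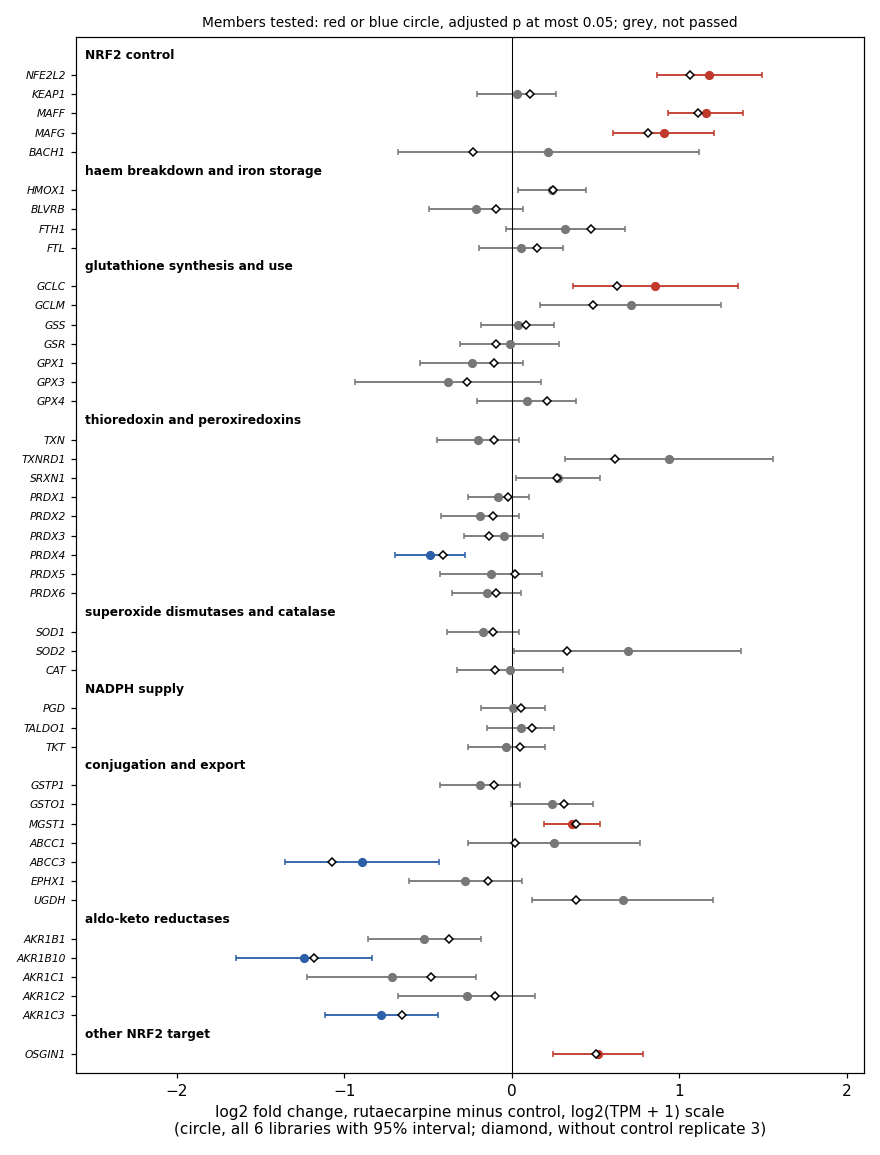
Log2 fold change (x axis, log2(TPM + 1) scale, rutaecarpine minus control) of the 44 tested genes grouped by role, with 95% intervals from all 6 libraries (circles) and the value without control replicate 3 (diamonds). Red and blue circles are the 6 genes called higher and the 4 called lower.

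Control replicate 3 stood apart. Its median log2(TPM + 1) over the tested genes was 3.56, against 3.95 to 3.97 in the other control libraries, and across all genes its deviation from them had a Spearman's rho of -0.52 with transcript length and 0.50 with GC content, a description over genes that share libraries. Rutaecarpine replicate 2 deviated from its group in the same direction, with a median of 3.81 against 3.96 and 4.00 and a rho of -0.42 with length and 0.18 with GC content. In control replicate 3 the genes of the pathway followed the same pattern. Of the 22 with a transcript of at most the median length, 20 were higher in control replicate 3 than in both other controls, and of the 22 longer ones, 14 were lower. Values without this library are therefore given beside many of the results. Without it, 10 of the 44 genes were called higher (22.7%, against 8.2% of all tested genes) and 6 lower (13.6%, against 10.3%), and all 10 genes called with 6 libraries were called again in the same direction. Without rutaecarpine replicate 2, 3 were called higher and 1 lower. In that fit 646 of all 14377 tested genes were called in either direction, against 1335 with 6 libraries. The 6 genes added without control replicate 3 were TXNRD1, SOD2, UGDH, FTH1, AKR1B1 and AKR1C1. With a correction of every library for transcript length and GC content, 9 of the 44 genes were called higher and 5 lower. Of all genes in that fit, 9.97% were called higher and 10.9% lower. The part of RNA quality in this pattern was not tested.

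**Figure D2:**
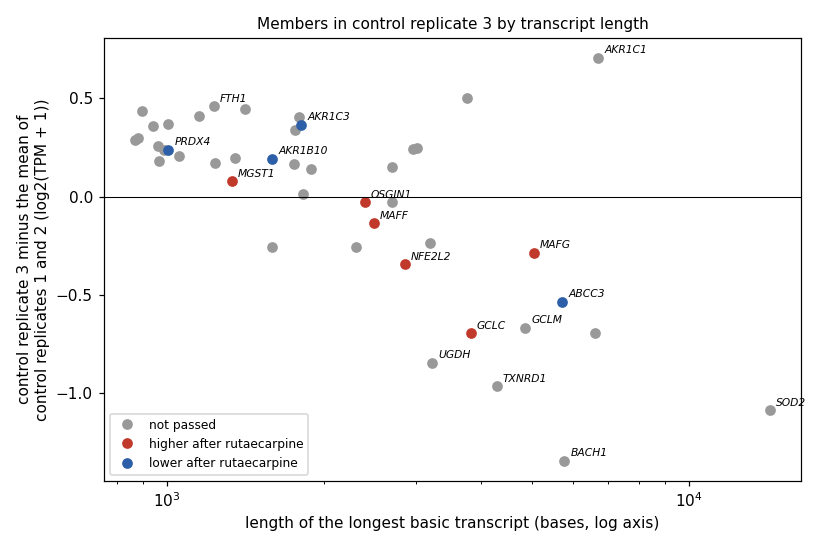
Difference between control replicate 3 and the mean of control replicates 1 and 2 (y axis, log2(TPM + 1)) against the length of the longest basic transcript (x axis, bases, log scale) for the 44 tested genes. Of the 22 shorter genes 20 lie above both other controls, and SOD2, BACH1, TXNRD1 and UGDH lie far below 0.

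As a check of the cell type, VIM and FN1, which mark mesenchymal cells, were abundant. VIM had 6974 to 7968 TPM in the controls and 4430 to 5164 TPM after rutaecarpine, and FN1 had 5016 to 6721 and 2816 to 3454 TPM. Both were called lower, with log2 fold changes of -0.63 (adjusted p = 0.00894) and -0.89 (adjusted p = 0.00972), as was NES at -0.53 (adjusted p = 0.0491). Of the glial and stem cell genes, OLIG2 had 1.48 to 1.73 TPM in the controls and 3.07 to 4.11 TPM after rutaecarpine and was called higher (log2 fold change 0.83, adjusted p = 0.0262). GFAP had 3.48 to 5.41 TPM with overlapping groups, and SOX2, S100B and AQP4 were at most 0.25 TPM in every library. Of the leukocyte markers, PTPRC, CD3E, CD14 and AIF1 were at most 0.54 TPM, and CSF1R was at 5.98 to 8.33 TPM with overlapping groups.

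Among the genes that control the pathway, NFE2L2, MAFF and MAFG rose while KEAP1 and BACH1 did not pass the test. NFE2L2 (ENSG00000116044, chromosome 2, 177227595 to 177392697, minus strand, GENCODE 29 on GRCh38) had 51.7, 50.5 and 40.0 TPM in control replicates 1, 2 and 3, and 103, 99.95 and 122 TPM in rutaecarpine replicates 1, 2 and 3. Every rutaecarpine library lay above every control, and the lowest control was replicate 3. The log2 fold change was 1.18 ± 0.13 (SE, adjusted p = 0.00282), and 1.06 without control replicate 3.

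MAFF and MAFG are small MAF proteins, which have no activation domain of their own and bind AREs as partners of NRF2. MAFF (chromosome 22, 38200767 to 38216511, plus strand) had 34.4, 37.5 and 32.6 TPM in the control libraries and 76.0, 77.0 and 83.7 TPM in the rutaecarpine libraries. This was a log2 fold change of 1.16 ± 0.10 (SE, adjusted p = 9.2e-04), the smallest adjusted p of the 44 genes. MAFG (chromosome 17, 81918270 to 81927714, minus strand) had 22.5, 20.8 and 17.5 TPM in the controls and 38.9, 35.8 and 41.5 TPM after rutaecarpine, a log2 fold change of 0.91 ± 0.13 (SE, adjusted p = 0.00624). Leaving out control replicate 3 gave log2 fold changes of 1.11 for MAFF and 0.81 for MAFG. The groups of both genes were well apart, and like NFE2L2 both were called whichever of the 6 libraries was left out. With the replicate number as a block MAFG did not pass (adjusted p = 0.0568), while NFE2L2 and MAFF did (adjusted p = 0.0349 and 0.0199). NFE2L2 and MAFF also passed the study's DEG threshold of a fold change above 1 on the log2 scale, applied here beside limma's adjusted p and met in the higher direction by 2.01% of all tested genes.

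KEAP1, the inhibitor of NRF2, had 53.3, 54.9 and 64.0 TPM in the controls and 58.3, 56.5 and 60.4 TPM after rutaecarpine. Its groups overlapped, and the log2 fold change of 0.03 had a 95% interval from -0.21 to 0.27. Its sign turned with the libraries centred on their medians and without control replicate 1 or 2. BACH1, the repressor, had 14.97, 17.2 and 5.72 TPM in the controls and 14.3, 10.6 and 16.3 TPM after rutaecarpine. Control replicate 3 was far below the other controls, and the log2 fold change was 0.22 with all libraries (adjusted p = 0.757) and -0.23 without that library (adjusted p = 0.433). A change of BACH1 in either direction was thus not detectable in these libraries.

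**Figure D3:**
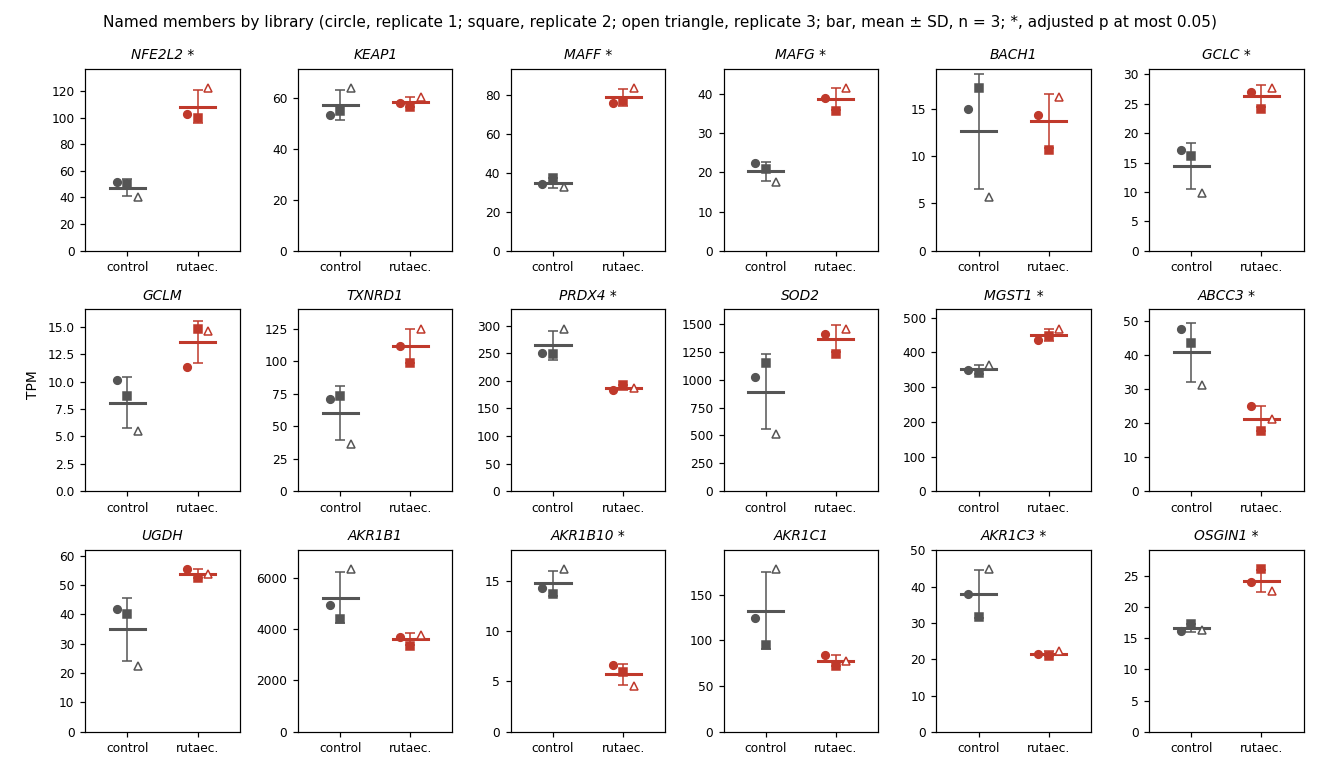
TPM (y axis, from 0) of 18 genes in each control (grey) and rutaecarpine (red) library, with mean and SD (n = 3). NFE2L2, MAFF and MAFG lie higher in all rutaecarpine libraries, AKR1B10 and AKR1C3 lie lower, and control replicate 3 (open grey triangle) is the lowest control for GCLC, TXNRD1, SOD2 and UGDH.

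Of the 7 glutathione genes, only GCLC was called. GCLC is the catalytic subunit of the ligase that joins glutamate and cysteine, the rate-limiting step of glutathione synthesis. GCLC (chromosome 6, 53497341 to 53616970, minus strand) had 17.2, 16.1 and 9.90 TPM in the control libraries and 27.0, 24.2 and 27.7 TPM after rutaecarpine. All rutaecarpine libraries were above all controls, with control replicate 3 lowest. The log2 fold change was 0.86 ± 0.21 (SE, adjusted p = 0.0483) with 6 libraries and 0.63 (adjusted p = 0.00663) without control replicate 3. When each of the other 5 libraries was left out, the adjusted p was between 0.0612 and 0.184, and it was 0.0524 to 0.112 with a pseudocount of 0.1, without the trend or without the filter on low TPM.

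The modifier subunit GCLM had 10.1, 8.66 and 5.52 TPM in the controls and 11.4, 14.8 and 14.6 TPM after rutaecarpine. Its groups did not overlap, but the log2 fold change of 0.71 (95% interval 0.17 to 1.25) did not pass (adjusted p = 0.114), with or without control replicate 3 (adjusted p = 0.0677). GSS, which completes glutathione, GSR, which regenerates it, and the peroxidases GPX1, GPX3 and GPX4 all had overlapping groups, with log2 fold changes from -0.38 for GPX3 to 0.09 for GPX4. GPX4, the peroxidase that reduces lipid peroxides, was the most abundant of them at 754 to 979 TPM.

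In the thioredoxin system the reductase TXNRD1 was higher in every rutaecarpine library without passing the test, while the groups of thioredoxin itself overlapped. TXNRD1, which passes electrons from NADPH to thioredoxin, had 71.2, 73.1 and 36.5 TPM in the controls and 111, 98.9 and 125 TPM after rutaecarpine. The rutaecarpine libraries were all higher, and control replicate 3 was far below the other controls. Its log2 fold change of 0.94 (95% interval 0.32 to 1.56) did not pass with 6 libraries (adjusted p = 0.0751), and was 0.62 without control replicate 3, where it passed (adjusted p = 0.00677). It also passed with the correction for length and GC (adjusted p = 0.0049) and after median centring of the libraries (adjusted p = 0.0224). TXN, thioredoxin itself, had 400 to 504 TPM in the controls and 363 to 403 TPM after rutaecarpine, with overlapping groups and a log2 fold change of -0.20 (adjusted p = 0.288). SRXN1, sulfiredoxin, which repairs oxidised peroxiredoxins, had 23.9, 23.1 and 23.0 TPM in the controls and 27.3, 27.2 and 31.2 TPM after rutaecarpine. Its groups did not overlap, and its log2 fold change of 0.28 did not pass (adjusted p = 0.167).

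Of the 6 peroxiredoxins, which reduce peroxides, PRDX4 fell. PRDX4 is the family member of the endoplasmic reticulum. PRDX4 (chromosome X, 23664262 to 23686399, plus strand) had 251, 248 and 295 TPM in the controls and 184, 193 and 186 TPM after rutaecarpine. Every rutaecarpine library was below every control, with a log2 fold change of -0.49 ± 0.09 (SE, adjusted p = 0.0175) and of -0.41 (adjusted p = 0.00369) without control replicate 3. It did not pass when control replicate 1 or any rutaecarpine library was left out (adjusted p from 0.0503 to 0.088), with median centring (adjusted p = 0.112) or without the mean-variance trend (adjusted p = 0.0546). The other 5 peroxiredoxins were not called, with log2 fold changes from -0.19 for PRDX2 to -0.05 for PRDX3.

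None of the 3 enzymes that remove superoxide and hydrogen peroxide directly was called by limma with 6 libraries. SOD2, the mitochondrial superoxide dismutase, had 1021, 1150 and 510 TPM in the controls and 1411, 1230 and 1457 TPM after rutaecarpine. The groups did not overlap, but control replicate 3 lay far from the other controls. On the log2 scale the change was 0.69 with 6 libraries (95% interval 0.01 to 1.37, adjusted p = 0.199) and 0.33 without control replicate 3 (adjusted p = 0.0452), so 1 library changed both its size and its call. With the correction for length and GC it was 0.49 and passed (adjusted p = 0.0145). SOD1, the cytosolic enzyme, and CAT, catalase, had overlapping groups and log2 fold changes of -0.17 and -0.01.

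The genes of haem breakdown and iron storage held most of the RNA of the 46 genes. FTH1, the ferritin heavy chain, alone made up 52.4% to 56.5% of their summed TPM in the controls and 59.6% to 63.3% after rutaecarpine. FTH1 had 17711, 18119 and 24620 TPM in the controls and 23899, 27359 and 23446 TPM after rutaecarpine. Control replicate 3 was the only control library within the range of the rutaecarpine libraries. Its log2 fold change was 0.32 (adjusted p = 0.254) with 6 libraries and 0.47 (adjusted p = 0.00985) without that library, and it did not pass with the length and GC correction (adjusted p = 0.18). FTH1 has many processed copies in the genome, and the 25 FTH1 pseudogene rows of the table summed to at most 0.057% of the TPM of FTH1 in any library. FTL, the light chain, had 4169 to 5198 TPM in the controls and 4497 to 4948 TPM after rutaecarpine, with a log2 fold change of 0.05. HMOX1, haem oxygenase, the enzyme often used as a readout of NRF2 activity, had 72.5, 77.95 and 75.9 TPM in the controls and 84.6, 96.0 and 87.8 TPM after rutaecarpine. All rutaecarpine libraries were higher, but the log2 fold change of 0.24 did not pass with 6 libraries (adjusted p = 0.141) or without control replicate 3 (adjusted p = 0.0796), and passed with the length and GC correction (adjusted p = 0.0427). BLVRB, which reduces biliverdin, was not called, with a log2 fold change of -0.21.

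The NADPH-supplying enzymes of the pentose phosphate pathway did not pass the test. PGD, TALDO1 and TKT had overlapping groups and log2 fold changes from -0.03 to 0.05, and their 95% intervals all lay between -0.26 and 0.25. ME1, malic enzyme, was at most 0.06 TPM in any library.

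Of the 7 conjugation and export genes tested, MGST1 rose and ABCC3 fell. MGST1 (chromosome 12, 16347142 to 16609259, plus strand) had 348, 340.2 and 363 TPM in the controls and 435, 447 and 468 TPM after rutaecarpine. The groups were apart and the spread within each was small, with a log2 fold change of 0.36 ± 0.07 (SE, adjusted p = 0.0221). It did not pass with the length and GC correction (log2 fold change 0.26, adjusted p = 0.153), with median centring (adjusted p = 0.377) or without the mean-variance trend (adjusted p = 0.0913), nor when any library other than control replicate 3 was left out (adjusted p from 0.0781 to 0.12). UGDH, which makes the UDP-glucuronate used for conjugation, had 42.0, 40.2 and 22.4 TPM in the controls and 55.4, 52.3 and 53.8 TPM after rutaecarpine. Its groups did not overlap. The fitted change was 0.66 on the log2 scale (95% interval 0.12 to 1.2, adjusted p = 0.132) with 6 libraries, and 0.38 without control replicate 3, where it passed (adjusted p = 0.0139).

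The pump ABCC3, which exports glutathione and glucuronide conjugates, was reduced in every rutaecarpine library. ABCC3 (chromosome 17, 50634777 to 50692252, plus strand) had 47.8, 43.5 and 31.1 TPM in the controls and 24.99, 17.7 and 21.4 TPM after rutaecarpine. All rutaecarpine libraries were below all controls, although control replicate 3 was the lowest control. Its log2 fold change was -0.89 ± 0.20 (SE, adjusted p = 0.0339) and -1.07 without control replicate 3 (adjusted p = 0.00289), and the adjusted p was 0.0664 to 0.125 when another library was left out and 0.0862 without the filter on low TPM. Its relative ABCC1 had overlapping groups, with a log2 fold change of 0.25. GSTP1, GSTO1 and EPHX1 were not called either, with log2 fold changes of -0.19, 0.24 and -0.28, and GSTM3 was not tested.

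The aldo-keto reductases, which reduce aldehydes, ketones and steroids with NADPH and include well-known NRF2 targets in human cells, had log2 fold changes below 0 for all 5 genes. AKR1B10 (chromosome 7, 134527592 to 134541408, plus strand) had 14.3, 13.7 and 16.2 TPM in the controls and 6.64, 5.93 and 4.52 TPM after rutaecarpine. With a log2 fold change of -1.24 ± 0.17 (SE, adjusted p = 0.006), it was the only one of the 44 genes to meet the DEG threshold in the lower direction, which 1.5% of all tested genes met, and it was called whichever of the 6 libraries was left out. AKR1B10 did not pass with the replicate number as a block (adjusted p = 0.0576). AKR1C3 had 37.9, 31.6 and 44.8 TPM in the controls and 21.6, 20.8 and 22.3 TPM after rutaecarpine, a log2 fold change of -0.78 ± 0.14 (SE, adjusted p = 0.0176). It passed without control replicate 2 or 3 and not when another library was left out (adjusted p from 0.0662 to 0.0785). For both genes every rutaecarpine library was below every control. Leaving out control replicate 3 gave log2 fold changes of -1.18 for AKR1B10 and -0.66 for AKR1C3.

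AKR1B1, aldose reductase, was the most abundant enzyme of the family, with 4938, 4382 and 6325 TPM in the controls and 3697, 3326 and 3763 TPM after rutaecarpine. AKR1C1 had 125, 94.98 and 178 TPM in the controls and 83.9, 72.4 and 77.1 TPM after rutaecarpine. The groups of both genes were apart in the lower direction, with control replicate 3 highest. Neither passed with 6 libraries, with log2 fold changes of -0.52 (95% interval -0.86 to -0.19, adjusted p = 0.0695) and -0.72 (95% interval -1.22 to -0.21, adjusted p = 0.09). Both passed without control replicate 3, at -0.37 (adjusted p = 0.0211) and -0.48 (adjusted p = 0.0358). AKR1C2 had overlapping groups, at 17.1 to 26.3 TPM in the controls and 15.6 to 17.9 TPM after rutaecarpine.

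The aldo-keto reductase genes lie in clusters. AKR1C1, AKR1C2 and AKR1C3 are neighbours on chromosome 10, with 4.12 kb between AKR1C1 and AKR1C2 and 17.3 kb between AKR1C2 and AKR1C3 in GENCODE 29 on GRCh38, and AKR1B1 and AKR1B10 lie 68.3 kb apart on chromosome 7. The AKR1C genes are near copies. Of all 50-base stretches in their transcripts, 27.0% of those of AKR1C1, 44.9% of those of AKR1C2 and 8.6% of those of AKR1C3 also occurred in another of the 3 genes. RSEM divides reads that match several genes, so the split of TPM among AKR1C1 and AKR1C2 is uncertain. AKR1B1 and AKR1B10 shared none of their 50-base stretches with each other. No other gene of the family was compared, so read sharing of AKR1B10 with another relative was not tested.

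OSGIN1, a growth inhibitor induced by oxidative stress, was up-regulated. OSGIN1 (chromosome 16, 83948282 to 83966332, plus strand) had 16.1, 17.3 and 16.4 TPM in the controls and 24.0, 26.1 and 22.5 TPM after rutaecarpine. Here control replicate 3 lay between the other controls. It had a log2 fold change of 0.51 ± 0.11 (SE, adjusted p = 0.0351) and 0.51 without control replicate 3 (adjusted p = 0.0167), and the adjusted p was 0.0918 to 0.14 when another library was left out and 0.16 with median centring.

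Of the 34 tested genes that were not called, 22 had a 95% interval within a 1.5-fold change in either direction. The other 12, TXNRD1, GCLM, UGDH, SOD2, AKR1B1 and AKR1C1 among them, had intervals that reached beyond a change of that size.

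For the rest of the pathway, a list of 73 further genes was taken, of which 64 passed the filter. Of these 64, 5 (7.81%) were called higher and 4 (6.25%) lower, where 4.6% and 4.68% of all tested genes were. NQO1, a quinone reductase and the classical NRF2 target, had 109, 101 and 122 TPM in the controls and 175, 171 and 182 TPM after rutaecarpine, with a log2 fold change of 0.67 ± 0.09 (SE, adjusted p = 0.00581), which did not pass with median centring (adjusted p = 0.0987). Both subunits of the transporter that imports cystine for glutathione were up-regulated and met the DEG threshold. SLC7A11 rose from 6.60, 8.29 and 2.88 TPM to 20.8, 17.9 and 27.9 TPM (log2 fold change 1.81, adjusted p = 0.0191). SLC3A2, which also serves other amino acid transporters, rose from 147, 183 and 237 TPM to 506, 635 and 639.6 TPM (log2 fold change 1.67, adjusted p = 0.00246). SQSTM1, the autophagy receptor that binds KEAP1, and ACO1, the cytosolic aconitase that doubles as an iron sensor, rose with log2 fold changes of 0.52 (adjusted p = 0.00786) and 0.72 (adjusted p = 0.0179). With median centring SQSTM1 did not pass (adjusted p = 0.231). Leaving out control replicate 3 gave smaller log2 fold changes for SLC7A11 (1.44) and ACO1 (0.58). It gave larger ones for SLC3A2 (1.84), NQO1 (0.74) and SQSTM1 (0.57).

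The further genes called lower were SOD3, the extracellular superoxide dismutase, IDH2, a mitochondrial source of NADPH, GSTM2, a glutathione transferase, and TXNDC17. SOD3 fell from 30.4, 28.2 and 40.7 TPM to 14.9, 18.1 and 17.2 TPM, a log2 fold change of -0.93 (adjusted p = 0.0156). IDH2 fell from 47.5, 49.4 and 56.9 TPM to 28.1, 30.9 and 30.8 TPM, a log2 fold change of -0.75 (adjusted p = 0.00662). The log2 fold changes of GSTM2 and TXNDC17 were -0.50 (adjusted p = 0.00979) and -0.39 (adjusted p = 0.0397). Leaving out control replicate 3 gave -0.77 for SOD3, -0.68 for IDH2, -0.52 for GSTM2 and -0.38 for TXNDC17. For all of these except TXNDC17 the values of the libraries are drawn in the plot of further pathway genes. NQO1, SLC3A2 and IDH2 were called whichever of the 6 libraries was left out, SQSTM1 in 5 of these 6 fits, ACO1 and SOD3 in 3, SLC7A11 and GSTM2 in 2, and TXNDC17 in 1. TXNDC17 also did not pass with median centring (adjusted p = 0.121).

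**Figure D4:**
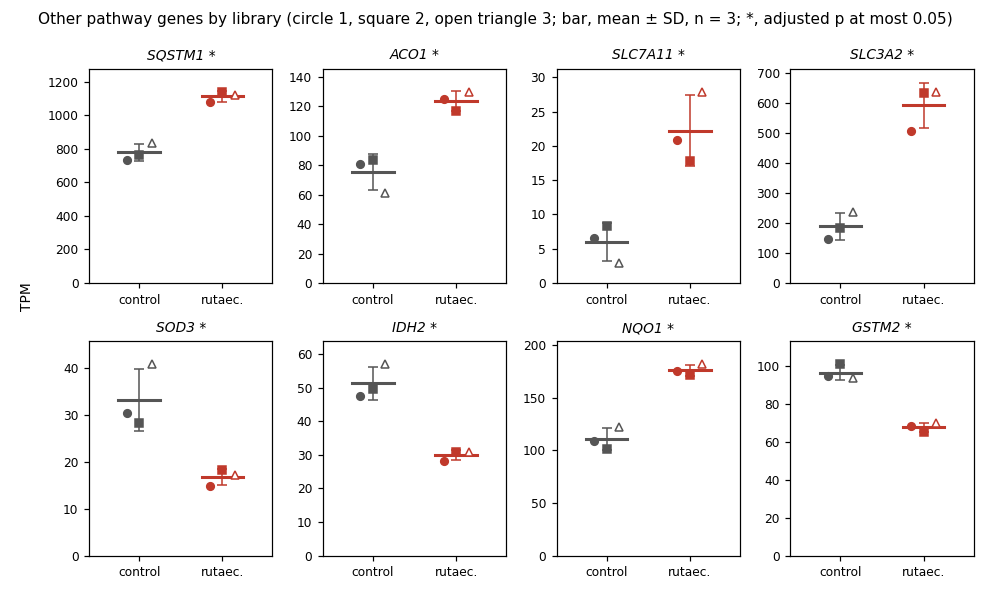
TPM (y axis, from 0) of 8 further genes of the pathway in each control (grey) and rutaecarpine (red) library, with mean and SD (n = 3). SQSTM1, ACO1, SLC7A11, SLC3A2 and NQO1 lie higher and SOD3, IDH2 and GSTM2 lie lower in every rutaecarpine library.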

How the data were processed

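RNA-Seq libraries of U87 cells after 48 h with 100 μM rutaecarpine (n = 3) or 0.1% DMSO (n = 3) were analysed. The authors quantified genes with RSEM, and the deposited values are TPM, 1 column per library. The submitters' processing notes name the build GRCh38.p13. The aligner and annotation release are not given in the sources used here. TPM keep no read numbers, so depth and counting error are unknown, and count methods, which the authors used, do not apply.

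The 14377 genes that reached 1 TPM in 3 or more libraries were fitted on log2(TPM + 1) with limma 3.58.1 in R 4.3.3 (trend, two-sided), with Benjamini-Hochberg adjustment over all of them. Libraries were not rescaled. The pseudocount of 1 understates fold changes of weakly expressed genes. The members and lists were chosen with earlier results of these data known. Values in every library are given for the 5 control genes, for called members and for members whose groups did not overlap with an absolute log2 fold change of at least 0.5, and of the further genes for NQO1 and those called at that size. FTH1, HMOX1, SRXN1 and TXNDC17 were added after their values were seen. Positions, transcript lengths and GC content came from GENCODE 29, and promoter windows from RefSeq (GRCh38.p14). Alternatives were a replicate block, median centring, no trend, other filters, a pseudocount of 0.1, library weights, a length and GC correction, and leaving out each library. Figures were drawn with matplotlib 3.10.9.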

Additional observations from a re-analysis of the deposited data

How the results depend on the processing

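Calls were sensitive to which libraries entered. The labels do not say whether same-numbered libraries were paired. The deviations of same-numbered libraries from their group means correlated at 0.12, -0.27 and -0.22. Those of rutaecarpine replicate 2 and control replicate 3, which both deviated with transcript length, correlated at 0.39. Such correlations cannot decide whether the libraries were paired, because that deviation enters them. With the replicate number as a block, 428 of all genes were called in place of 1335, 2 members higher, 0 lower, 2 further pathway genes higher and 1 lower. These members were NFE2L2 and MAFF, and these further genes were SLC3A2, NQO1 and, lower, IDH2. Library weights gave 3962 calls, with 14 members higher, 14 further genes higher and 15 lower. The length and GC correction gave 2985 calls, with 10 further genes higher and 12 lower, and median centring gave 3 further genes higher. With an absolute log2 fold change above 1 as well, 505 genes, 2 members higher, 1 lower, and 2 and 0 further genes were called. Leaving out 1 library gave 539 to 2666 calls over all genes, 3 to 10 members higher and 1 to 6 lower, and 2 to 10 further genes higher and 1 to 8 lower. The highest of each was without control replicate 3. The log2 fold change of KEAP1 turned to -0.0646 with median centring and ranged from -0.022 to 0.1081 when 1 library was left out, and that of BACH1 turned to -0.132 with library weights and -0.006 with the length and GC correction and ranged from -0.2296 to 0.4887 when 1 library was left out. None of the other 16 genes with values in every library by rule changed direction under any alternative run. The cause of these changes was not tested.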
